A study of Mus musculus with 4 samples.

Results

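Interferon-stimulated genes are the genes that cells switch on when they receive an interferon signal. A list of 54 such genes was followed in cultured mouse brown preadipocytes, the precursors of brown fat cells, before and during their differentiation. The members were chosen as commonly named interferon-stimulated genes, with earlier results of these data known. They were matched by symbol or older symbol to the RefSeq transcripts of the expression tables. All 54 were found among 22463 genes with a symbol, and a gene with several transcripts was represented by the transcript with most reads over the 4 libraries.

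The cells came from interscapular brown fat of Mll3-/-Mll4 f/f embryos at stage E18.5, on a C57BL/6J background, and were immortalized with the SV40 large T antigen. MLL3 and MLL4 are related histone methyltransferases, and every cell used here lacked MLL3. Infection with an adenovirus carrying GFP (Ad-GFP) left Mll4 in place, so that the samples labelled WT were themselves Mll3-/-. Infection with an adenovirus carrying Cre (Ad-Cre) deleted Mll4 and gave Mll3-/-Mll4-/- cells. RNA-Seq was done at day 0, before the adipogenic mixture was added, and at day 2 of adipogenesis, as a single library per condition, 4 in all. The design therefore has no replicate, no test between conditions was possible, and each interval below covers counting error only. Both infections used an adenovirus and no library of uninfected cells was analysed here. The pools differed in Cre itself as well as in Mll4, so Cre and the loss of MLL4 cannot be told apart. These cells are 1 immortalized line, and other lines may differ in level.

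The libraries held between 15831915 and 22099995 reads counted on exons. Values are given as reads and as RPKM, the reads scaled to exon length and to the mapped reads of the library, and a gene is called expressed above 1 RPKM. The Ad-Cre day 2 library stood apart from the others. Its ratio to the Ad-GFP day 2 library had a median log2 of 0.43 over the shortest quintile of expressed transcripts and of -0.68 over the longest. The same ratio ran from -0.67 over the quintile lowest in GC content to 0.54 over the highest. Ratios with this library are therefore also given after division by their trend over transcript length and GC content. Fabp4, Cebpa, Pparg, Adipoq and Plin1, 5 of 6 adipocyte markers, passed 2.5-fold upward from day 0 to day 2 in both cell pools, while Ucp1 had at most 1 read per library. Kmt2d, the gene of MLL4, had 6304, 8530, 6316 and 5595 reads in the Ad-GFP day 0, Ad-GFP day 2, Ad-Cre day 0 and Ad-Cre day 2 libraries. A count over the whole transcript does not show the loss of a few deleted exons, so these values do not check the genotype.

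Type I interferons bind the receptor of Ifnar1 and Ifnar2, and the kinases JAK1 and TYK2 then activate a complex, with STAT2 and IRF9 among its parts, that binds the interferon-stimulated response element. Interferon gamma acts through Ifngr1 and Ifngr2, and its signal ends at the gamma-activated site. The products of the target genes detect viral nucleic acid, block viral replication, attach ubiquitin or the ubiquitin-like ISG15 to proteins, or feed back on the signal itself.

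Response elements were looked for in RefSeq promoters from 250 bases before to 50 bases after each annotated start (promoter table of GRCm38.p6, available for 42 of the 54 genes). The core of the response element was searched as GAAA, 2 bases of any kind and GAAA and the gamma-activated site as TTCNNNGAA, on both strands. Copies may overlap each other, and a match of the first can share bases with a match of the second. The core was found for 22 of the 42 genes, or 52.4%, against 3.99% of 27025 genes in the promoter table and 3.26% of expressed genes outside the list. More than a single copy was found for 10 of the 42 genes, or 23.8%, against 0.266% of all genes. The gamma-activated site was found for 14 of the 42 genes, or 33.3%, against 9.55% of all genes. By role, the core was found for 7 of 8 GTPases, 6 of 9 sensors, 5 of 14 effectors, 3 of 7 genes of ubiquitin, ISG15 and ADP-ribose transfer, and 1 of 4 transcription factors. A match describes letters in this window and is not a measured binding site.

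The 150 bases before the annotated start are shown for 6 members whose levels are described below, in lower case with each match of the core in capitals. They run 5′ to 3′ on the strand of the gene, and capitals that begin with TTTC are the core read on the other strand. Isg15 was chosen for its 3 overlapping copies, Bst2 and Oas1a because they stood furthest above Ad-GFP levels in Ad-Cre cells at day 0, and 3 GTPases for a family with copies in nearly every promoter.
Isg15: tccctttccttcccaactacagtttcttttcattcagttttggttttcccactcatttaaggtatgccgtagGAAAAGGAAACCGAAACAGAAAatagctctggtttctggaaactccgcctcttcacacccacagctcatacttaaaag
Bst2: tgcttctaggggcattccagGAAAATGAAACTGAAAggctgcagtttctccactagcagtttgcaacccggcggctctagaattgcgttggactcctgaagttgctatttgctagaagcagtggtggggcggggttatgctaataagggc
Oas1a: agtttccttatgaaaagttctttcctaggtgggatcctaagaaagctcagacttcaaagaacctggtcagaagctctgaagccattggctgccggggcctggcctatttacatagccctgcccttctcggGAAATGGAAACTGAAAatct
Gbp3: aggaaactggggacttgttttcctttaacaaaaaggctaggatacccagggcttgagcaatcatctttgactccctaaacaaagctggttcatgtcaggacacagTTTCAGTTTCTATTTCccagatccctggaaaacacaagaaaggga
Igtp: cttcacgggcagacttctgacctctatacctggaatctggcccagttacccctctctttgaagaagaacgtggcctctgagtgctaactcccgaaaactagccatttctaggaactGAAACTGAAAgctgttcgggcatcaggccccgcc
Irgm2: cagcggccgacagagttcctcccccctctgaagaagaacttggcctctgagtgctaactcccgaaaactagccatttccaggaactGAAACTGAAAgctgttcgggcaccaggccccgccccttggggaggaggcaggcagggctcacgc

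Each of these stretches matched build NCBI37, the build of the expression files, exactly and only once. They lie at chr4:155574928-155575077 on the minus strand (Isg15), chr8:74061372-74061521 on the minus strand (Bst2) and chr5:121357535-121357684 on the minus strand (Oas1a). The GTPase stretches lie at chr3:142222858-142223007 (Gbp3), chr11:58012908-58013057 (Igtp) and chr11:58028329-58028478 (Irgm2), all on the plus strand. Igtp and Irgm2 are neighbours on chromosome 11, and their promoters share an identical run of 38 bases, so they are not independent examples of the element. The copies in Isg15 begin at -78, -72 and -66, counted from the annotated start.

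**Figure D1:**
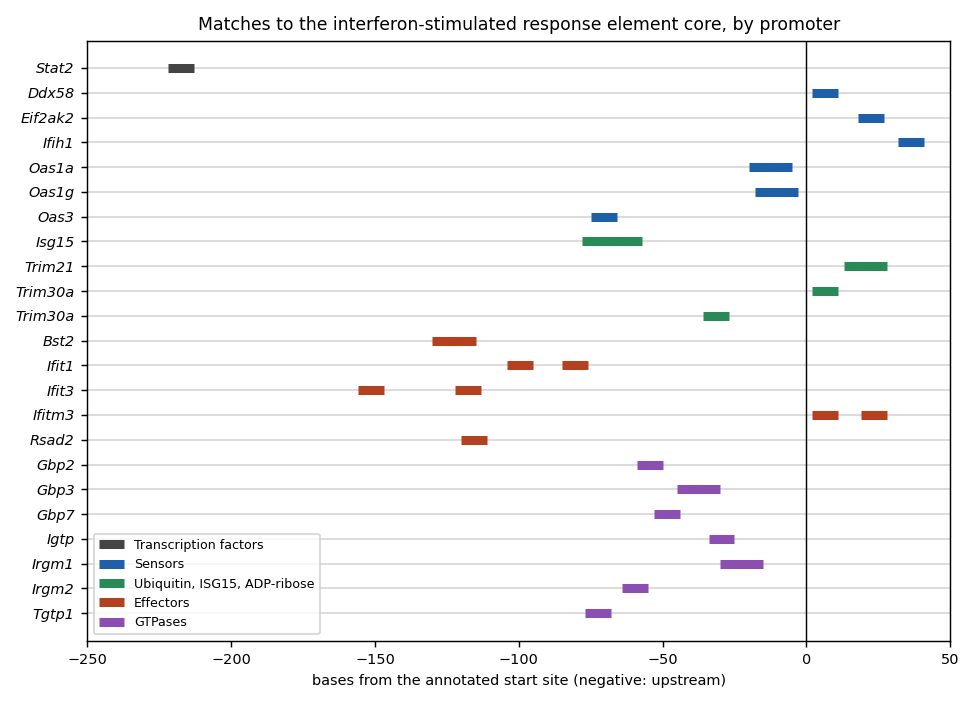
Positions of core matches in the promoters of 22 members, with 1 line per promoter (Trim30a has 2 annotated starts). The x axis gives bases from the annotated start, from 250 before to 50 after it, each bar is a match or a run of overlapping matches, and colours mark the role of the gene; in the 7 GTPase promoters the matches begin between -77 (Tgtp1) and -24 (Irgm1).

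Most members were measurable in preadipocytes. In the Ad-GFP day 0 library 42 of the 54 members were above 1 RPKM, and in the Ad-Cre day 0 library 42 were. At day 2 the number was 17 for Ad-GFP and 25 for Ad-Cre. The median member level was 4.48 RPKM and 4.66 RPKM at day 0 in Ad-GFP and Ad-Cre cells, and 0.380 RPKM and 0.878 RPKM at day 2. Over 44 members above 1 RPKM in at least 1 library, the highest library was Ad-Cre day 0 for 34, Ad-GFP day 0 for 7, Ad-Cre day 2 for 3 and Ad-GFP day 2 for 0. The lowest library was Ad-GFP day 2 for 35 and Ad-Cre day 2 for 9. This ranking of libraries was not made over all genes.

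Levels spanned a wide range among the members. Ifitm3, a membrane protein that hinders entry of enveloped viruses, was the most abundant, at 214, 107, 167 and 357 RPKM in the Ad-GFP day 0, Ad-GFP day 2, Ad-Cre day 0 and Ad-Cre day 2 libraries. It was the largest part of the summed level of the 54 genes, which was 647, 265, 802 and 683 RPKM in the same order and 434, 158, 635 and 326 RPKM without it. At the other end, 10 members did not pass 1 RPKM in any library, namely Mx1, Oas1g, Oas2, Oas3, Rsad2, Gbp6, Ifi47, Zbp1, Tgtp1 and Epsti1. Several of these had no read in some library. Oas2, an oligoadenylate synthetase, had 21, 0, 58 and 2 reads, which puts it at least 9.36-fold lower at day 2 than at day 0 in Ad-GFP cells when 3 reads are set as the floor. Ifi47, a GTPase, had 17, 0, 10 and 0 reads, at least 7.57-fold lower at day 2 in Ad-GFP cells and at least 3.08-fold lower in Ad-Cre cells by the same floor. Mx1, whose gene is disrupted in C57BL/6 mice and is listed by RefSeq as non-coding, had 6, 0, 3 and 0 reads, at least 2.67-fold lower at day 2 in Ad-GFP cells. Gbp6 had 5, 0, 4 and 1 reads, at least 2.23-fold lower at day 2 in Ad-GFP cells. Oas3 (1, 1, 3 and 0 reads), Epsti1 (1, 0, 0 and 1) and Tgtp1 (3, 0, 1 and 0) were too low for any comparison.

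**Figure D2:**
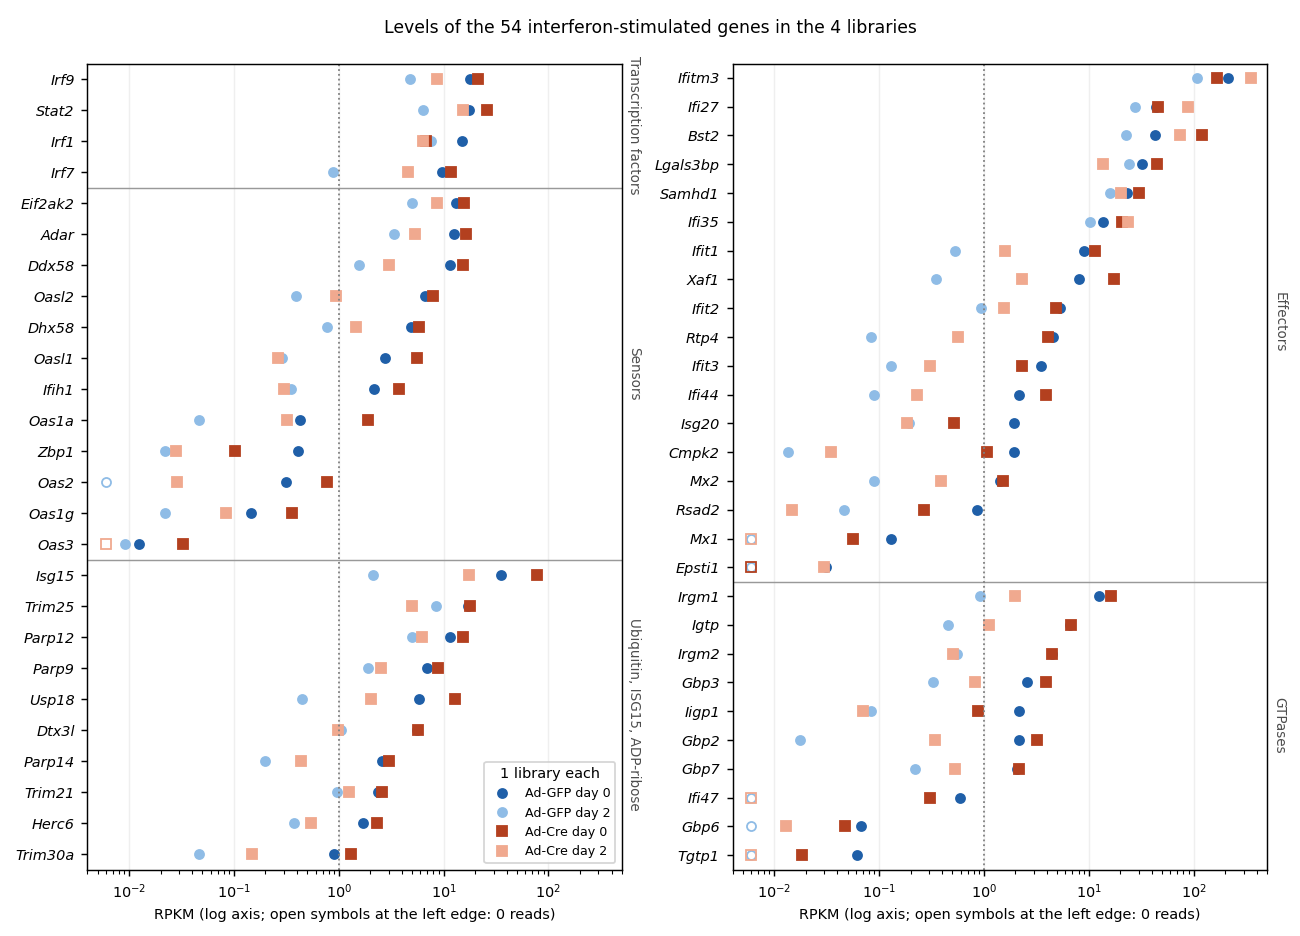
RPKM of each of the 54 members in the 4 libraries, on a log axis, grouped by role and ordered by the Ad-GFP day 0 level, with 1 point per library and open symbols for 0 reads. The dotted line is 1 RPKM; the pale day 2 symbols lie left of the dark day 0 symbols for most genes, with Ifitm3, Ifi27 and Ifi35 in Ad-Cre cells on the other side.

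The first comparison asked how the genes changed over 2 days of adipogenesis in Ad-GFP cells. The interferon-stimulated genes were lower at day 2 almost throughout. Of 42 members expressed on at least 1 of the 2 days, 32 were over 2.5-fold lower at day 2, beside 12.7% of all expressed genes, and 0 were over 2.5-fold higher, beside 8.38%. The median log2 ratio of the 42 members was -2.92, against 0.15 over all 11541 expressed genes. The counting interval lay below 0 for all 42. For all expressed genes it lay above 0 for 5349 and below 0 for 3919. Of the 42 members 17 were above 1 RPKM on both days, and the others passed the threshold through the day 0 library alone. In bulk RNA, fewer cells of a type and less RNA per cell cannot be told apart.

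The second comparison asked the same of Ad-Cre cells. Of 42 expressed members, 31 were over 2.5-fold lower at day 2, beside 10.2% of all expressed genes, and 0 were over 2.5-fold higher, beside 9.14%. The median log2 ratio was -2.13, against -0.01 over all 11412 expressed genes. The counting interval lay below 0 for 38 members, above 0 for Ifitm3, Ifi27 and Ifi35, and held 0 for Irf1. For all expressed genes it lay above 0 for 4546 and below 0 for 4683. Of the 42 genes 25 were above 1 RPKM on both days, and the others passed the threshold in a single library, which was that of day 0. After division by the length and GC trend, 29 members were over 2.5-fold lower, beside 9.37% of all expressed genes, and 27 of them were among the 31.

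Transcription factors carry the interferon signal to the genome. Irf7, which amplifies interferon production and is itself induced by it, had 311 and 38 reads at day 0 and day 2 in Ad-GFP cells, and 426 and 154 reads in Ad-Cre cells. Its log2 ratio was -3.45 for Ad-GFP (counting interval -3.98 to -2.96) and -1.35 for Ad-Cre (-1.63 to -1.08), so it was lower at day 2 in both pools, and less so in Ad-Cre cells. Stat2 and Irf9, partners in the complex that binds the response element, fell short of the cutoff in Ad-Cre cells, though Irf9 passed it after division by the trend. Stat2 had 1308, 644, 2201 and 1215 reads in the order Ad-GFP day 0, Ad-GFP day 2, Ad-Cre day 0 and Ad-Cre day 2, with log2 ratios of day 2 to day 0 of -1.44 for Ad-GFP and -0.74 for Ad-Cre. Irf9 had 787, 281, 1068 and 399 reads in that order, with ratios of -1.90 and -1.31, the latter just inside 2.5-fold at 2.47-fold and -1.40 after division by the trend. Irf1, an activator shared by both interferon pathways, was highest in the Ad-GFP day 0 library, with 553, 370, 283 and 246 reads. Its ratio was -0.998 for Ad-GFP (-1.19 to -0.81) and -0.09 for Ad-Cre (-0.34 to 0.16), where the days did not differ beyond counting error.

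The sensors recognise viral RNA. Over 2.5-fold lower at day 2 were 7 of 7 expressed sensors in Ad-GFP cells and 7 of 8 in Ad-Cre cells, or 6 of 8 after division by the trend. Above 1 RPKM on both days were 3 of the 7 and 4 of the 8, and the others entered these counts through the day 0 library alone. Ddx58, which encodes RIG-I, had 988, 179, 1473 and 267 reads in the same library order, with log2 ratios of -2.88 for Ad-GFP (-3.12 to -2.65) and -2.35 for Ad-Cre (-2.54 to -2.16). Ifih1, which encodes MDA5, had 208, 44, 404 and 30 reads and ratios of -2.66 and -3.64. It was among the few members further down in Ad-Cre cells, at -2.99 after division by the trend and -2.90 for Ad-GFP. Oasl1, which restrains translation of Irf7, showed the same order, with 101, 14, 229 and 10 reads and ratios of -3.27 and -4.40. Oasl2 had 357, 28, 482 and 53 reads and ratios of -4.09 and -3.07. Adar, which edits double-stranded RNA, had 1267, 455, 1885 and 572 reads and ratios of -1.90 and -1.61, the latter -1.17 and inside the cutoff after division by the trend. Eif2ak2, which encodes the kinase PKR, was the expressed sensor that stayed inside the cutoff in Ad-Cre cells, with 967, 494, 1334 and 678 reads and ratios of -1.39 and -0.86. Of the remaining sensors, Oas1a had 14, 2, 70 and 11 reads, Oas1g 5, 1, 14 and 3, and Zbp1 14, 1, 4 and 1. Dhx58 had 204, 43, 272 and 64 reads and ratios of -2.66 and -1.97.

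The effectors showed the widest spread. Over 2.5-fold lower at day 2 were 9 of 15 expressed effectors in Ad-GFP cells and 9 of 14 in Ad-Cre cells. Above 1 RPKM on both days were 6 of the 15 and 9 of the 14, and the others entered through the day 0 library alone. Ifit1, which binds viral RNA that lacks the host cap, had 412, 32, 594 and 75 reads, with log2 ratios of -4.11 for Ad-GFP (-4.67 to -3.58) and -2.87 for Ad-Cre (-3.24 to -2.52). Xaf1, a gene linked to apoptosis, had 364, 21, 874 and 109 reads and ratios of -4.53 and -2.89. Cmpk2, a mitochondrial nucleotide kinase, had the lowest ratio of the expressed members in both pools. It had 107, 1, 66 and 2 reads, with ratios of -7.16 for Ad-GFP (-12.48 to -4.65) and -4.93 for Ad-Cre (-8.01 to -3.02), and its day 2 counts are too few to set the size of the change. Rsad2, which encodes viperin and is the neighbour of Cmpk2 on chromosome 12, had 56, 4, 20 and 1 reads and stayed under 1 RPKM throughout. Rtp4 had 123, 3, 126 and 16 reads and a ratio of -5.78 in Ad-GFP cells (-8.07 to -4.20). Ifi44 had 107, 6, 223 and 12 reads, and its ratio in Ad-Cre cells was -4.10 (-5.08 to -3.27). The ratios of Ifit2, Ifit3, Isg20 and Mx2 in Ad-GFP cells lay between these, at -2.49, -4.74, -3.33 and -3.98. In Ad-Cre cells Ifit2 had a ratio of -1.67, which was -1.15 and inside the cutoff after division by the trend.

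A second set of effectors stayed nearer to their day 0 level in Ad-GFP cells. There 6 effectors stayed inside 2.5-fold, namely Lgals3bp, Ifi35, Samhd1, Ifi27, Bst2 and Ifitm3, with log2 ratios from -0.41 to -0.999 and every counting interval below 0. Samhd1, which degrades deoxynucleotides, had 1596, 1468, 2361 and 1460 reads and ratios of -0.54 and -0.58. Bst2, which encodes tetherin, a protein that holds budding virus at the cell surface, had 571, 399, 1799 and 1030 reads and ratios of -0.94 and -0.69. In Ad-Cre cells its ratio was -1.76 after division by the trend, past the cutoff. Lgals3bp, a secreted glycoprotein, differed in the other direction from most members, with 1204, 1213, 1900 and 531 reads and ratios of -0.41 for Ad-GFP and -1.73 for Ad-Cre, the latter over 2.5-fold.

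Ifitm3, Ifi27 and Ifi35 were higher at day 2 than at day 0 in Ad-Cre cells and lower in Ad-GFP cells. Ifitm3 had 2380 and 1592 reads at day 0 and day 2 in Ad-GFP cells, and 2108 and 4167 reads in Ad-Cre cells. Its log2 ratios were -0.999 (-1.09 to -0.91) and 1.097 (1.02 to 1.17). Ifi27, annotated in the NCBI37 gene set as Ifi27l1, had 798, 673, 936 and 1696 reads and ratios of -0.66 and 0.97. Ifi35 had 323, 322, 555 and 586 reads and ratios of -0.42 and 0.19. These are short transcripts, of the kind that ran high in the Ad-Cre day 2 library. After division by the trend the Ad-Cre ratios were 0.19 for Ifitm3, 0.26 for Ifi27 and -0.38 for Ifi35, so the last changed sign. For Ifi35, 17.4% of its exon bases are also covered by exons of a gene on the opposite strand, and the strand of counting is not stated.

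ISG15 and the enzymes that handle it, ubiquitin or ADP-ribose formed the next group. Over 2.5-fold lower at day 2 were 6 of 9 expressed genes in Ad-GFP cells and 8 of 10 in Ad-Cre cells, or 7 of 9 and 7 of 10 after division by the trend. Above 1 RPKM on both days were 5 of the 9 and 6 of the 10, and the others entered through the day 0 library alone. Isg15 itself had 456, 37, 1160 and 240 reads, with log2 ratios of -4.04 for Ad-GFP (-4.57 to -3.56) and -2.16 for Ad-Cre (-2.37 to -1.96). Usp18, which removes ISG15 from proteins and dampens the receptor, had 176, 18, 442 and 65 reads and ratios of -3.71 and -2.65. Parp14, an ADP-ribosyl transferase, had 321, 33, 424 and 57 reads and ratios of -3.70 and -2.78. The pair Parp9 and Dtx3l, which encode a complex and overlap on opposite strands, had ratios of -1.87 and -2.40 with Ad-GFP and of -1.82 and -2.54 with Ad-Cre. Trim25, the ubiquitin ligase that activates RIG-I, was more strongly lowered in Ad-Cre cells, with 1632, 1077, 1954 and 505 reads and ratios of -1.02 and -1.84 (-1.13 and -1.38 after division by the trend). Parp12 had 636, 372, 959 and 361 reads and ratios of -1.19 and -1.30, inside the cutoff in both pools. Trim21 had ratios of -1.30 and -1.05. Herc6 had ratios of -2.18 and -2.09, the latter -1.30 and inside the cutoff after division by the trend. Trim30a was expressed in Ad-Cre cells only by the threshold, with 58, 4, 96 and 10 reads.

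The interferon-inducible GTPases, which act on vacuoles that hold intracellular pathogens, were lower at day 2 wherever they were expressed. Over 2.5-fold lower were 7 of 7 expressed GTPases in Ad-GFP cells and 6 of 6 in Ad-Cre cells, or 5 of 6 after division by the trend. In Ad-GFP cells 0 of the 7 and in Ad-Cre cells 2 of the 6 were above 1 RPKM on both days, so the others entered these counts through the day 0 library, where they were high. Irgm1 had 484, 47, 711 and 79 reads, with log2 ratios of -3.78 for Ad-GFP (-4.25 to -3.35) and -3.06 for Ad-Cre (-3.41 to -2.72). Igtp had 233, 21, 266 and 41 reads and ratios of -3.89 and -2.58. Irgm2, its neighbour, had 267, 45, 303 and 32 reads and ratios of -2.99 and -3.13. Among the guanylate-binding proteins, Gbp7 had 197, 28, 234 and 53 reads and ratios of -3.23 and -2.03, the latter -1.29 and inside the cutoff after division by the trend, and Gbp3 had 116, 20, 202 and 39 reads and ratios of -2.95 and -2.26. Gbp2 had 91, 1, 153 and 15 reads, with ratios of -6.93 for Ad-GFP (-12.25 to -4.41) and -3.24 for Ad-Cre (-4.11 to -2.47). Iigp1 had 116, 6, 54 and 4 reads and did not reach 1 RPKM in Ad-Cre cells.

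**Figure D3:**
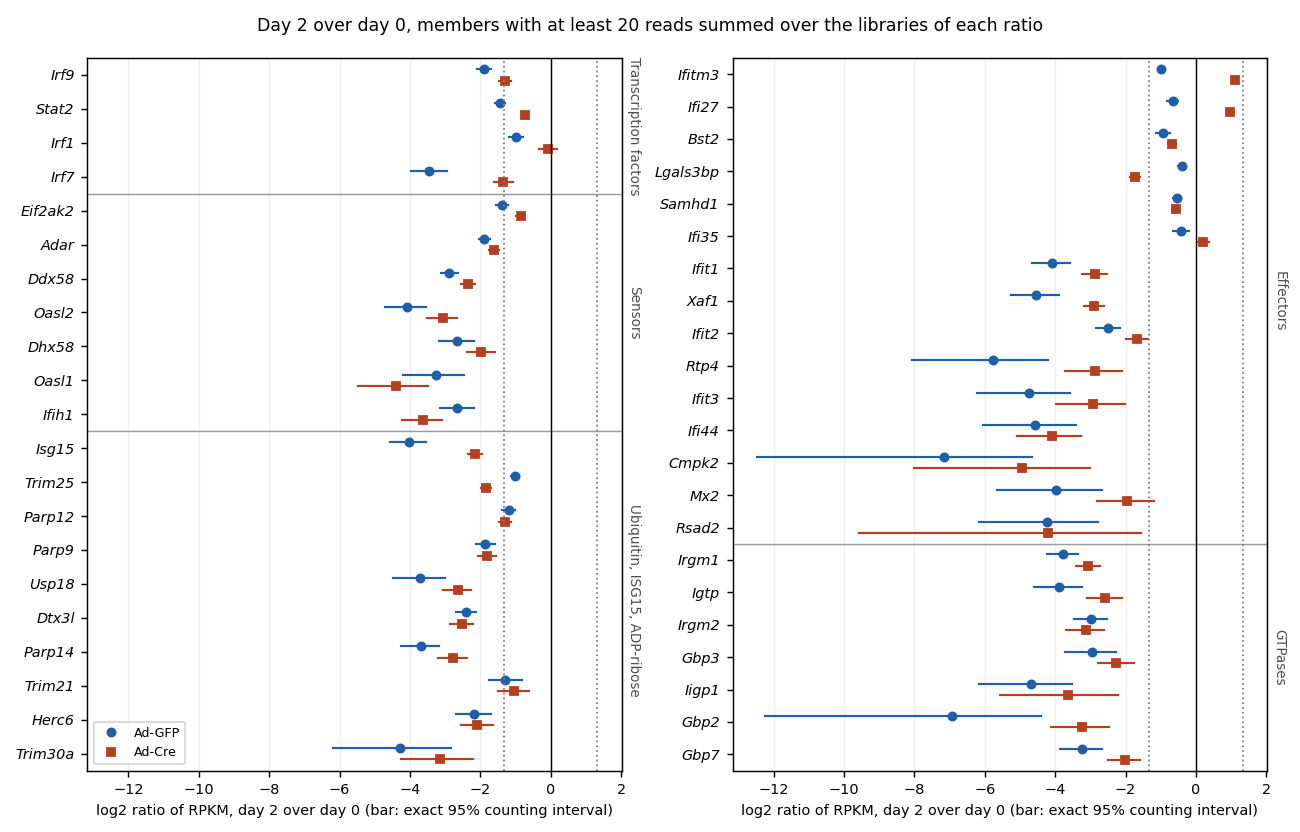
Log2 ratio of RPKM at day 2 over day 0 for 43 members with at least 20 reads summed over the libraries of each ratio, in Ad-GFP cells (circles) and Ad-Cre cells (squares), with exact 95% counting intervals as bars and dotted lines at 2.5-fold. Most points lie left of the lower dotted line, the Ad-Cre point lies right of the Ad-GFP point for most genes, and Ifitm3 and Ifi27 lie right of 0 in Ad-Cre cells.

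Both pools were therefore compared gene by gene. Over 2.5-fold lower in both pools were 27 members, in Ad-GFP cells alone Irf9, Stat2, Eif2ak2, Isg20 and Iigp1, and in Ad-Cre cells alone Oas1a, Lgals3bp, Trim25 and Trim30a. Of 40 members expressed in both comparisons, 32 had a less negative or higher ratio in the Ad-Cre pool, and 35 had one after division by the trend. None of these counts was made over all genes, so they stand without a background. The difference of the log2 ratios, Ad-Cre minus Ad-GFP, could be given a counting interval for 34 members with at least 10 reads in all 4 libraries. It lay above 0 for 22, below 0 for 3 (Ifih1, Trim25 and Lgals3bp) and held 0 for 9. Over 11475 genes with such reads it lay above 0 for 33.4% and below 0 for 42.0%. The median difference was 0.65 for the 34 members, or 0.985 after division by the trend, and -0.11 for all genes. As deposited, the largest positive differences among the members were those of Irf7 at 2.10 (1.54 to 2.65), Ifitm3 at 2.10 (1.98 to 2.21) and Isg15 at 1.88 (1.36 to 2.41). This order did not hold after division by the trend, with which Gbp7 (2.25) and Xaf1 (1.97) stood above Irf7 (1.82), and Ifitm3 and Isg15 were at 1.34 and 1.03. With 1 library per condition it is not known whether these differences exceed the spread between cultures.

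The third comparison asked how the genes stood in preadipocytes with and without MLL4, at day 0. The levels were close. Of 44 expressed members 2 were over 2.5-fold higher in Ad-Cre cells, beside 1.83% of all expressed genes, and 1 was over 2.5-fold lower, beside 3.67%. Above 1 RPKM in both libraries were 40 of the 44. Among the genes past the cutoff, Oas1a passed 1 RPKM in Ad-Cre cells alone and Isg20 in Ad-GFP cells alone, each where it was higher. The median log2 ratio was 0.31, against -0.01 over all 11313 expressed genes. The counting interval lay above 0 for 27 members, below 0 for 6 and held 0 for 11. Over all expressed genes it lay above 0 for 3142 and below 0 for 3248.

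Bst2 and Oas1a passed the cutoff. Bst2 had 571 reads for Ad-GFP and 1799 for Ad-Cre, a log2 ratio of 1.47 (1.34 to 1.61). Oas1a had 14 and 70 reads, a ratio of 2.14 (1.30 to 3.08), but 89.8% of the 50-base windows of its transcript also match elsewhere in the genome, so its reads may belong in part to its paralogs. Isg15, Usp18 and Xaf1 followed at 1.16, 1.15 and 1.08, inside the cutoff. On the other side, Isg20, an exonuclease, had 30 and 9 reads, a ratio of -1.92 (-3.18 to -0.81). Iigp1 had 116 and 54 reads and a ratio of -1.29, Irf1 a ratio of -1.15 (-1.36 to -0.94), Cmpk2 of -0.88, Ifit3 of -0.58 and Ifitm3 of -0.36. After division by the trend Isg15, at 1.43, and Iigp1, lower in Ad-Cre cells, also passed the cutoff. By role, the median was 0.39 for 8 sensors, 0.38 for 10 genes of ubiquitin, ISG15 and ADP-ribose transfer, 0.27 for 4 transcription factors, 0.11 for 15 effectors and 0.07 for 7 GTPases.

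The cell pools differed at day 0 in preadipocyte markers too. Pdgfra was at 73.6 RPKM in Ad-GFP and 9.72 RPKM in Ad-Cre cells, Dlk1 at 141 and 10.1 RPKM, Cd34 at 11.1 and 0.352 RPKM, and Ly6a, itself inducible by interferon, at 9.90 and 0.248 RPKM. Thy1 and Col1a1 were closer, at 294 and 183 RPKM and at 1247 and 1010 RPKM. The summed level of the 6 markers, most of it Col1a1 and Thy1, was 1777 and 1213 RPKM at day 0 and 173 and 229 RPKM at day 2, in Ad-GFP and Ad-Cre cells. In Ad-GFP cells 5 of the 6 were over 2.5-fold lower at day 2. In Ad-Cre cells 2 were over 2.5-fold lower and 1 was higher, Cd34, at 2.98 RPKM at day 2. Dlk1 and Ly6a were also above their day 0 level in Ad-Cre cells at day 2, at 17.9 and 0.871 RPKM. The part of such differences between the pools in the interferon-stimulated genes was not tested.

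The fourth comparison set Ad-Cre against Ad-GFP cells at day 2. Here the interferon-stimulated genes were higher in Ad-Cre cells. Of 26 expressed members 8 were over 2.5-fold higher in Ad-Cre cells, beside 8.81% of all expressed genes, and 0 were over 2.5-fold lower, beside 9.88%. The median log2 ratio was 0.93, against -0.15 over all 11280 expressed genes. The counting interval lay above 0 for 21 members, below 0 for 3 and held 0 for 2. For all expressed genes it lay above 0 for 3882 and below 0 for 5340. Of the 26, 16 were above 1 RPKM in both libraries, and most of the others passed through Ad-Cre cells alone, where they were higher. A rule that does not use the Ad-Cre values took the 42 members expressed in Ad-GFP cells on either day. Of these 13 were over 2.5-fold higher, beside 8.14% of all genes under that rule. Their median was 1.12, against -0.16 over all such genes. This count also holds Gbp2, Rtp4, Mx2, Ifi44 and Cmpk2, which were under 1 RPKM in both day 2 libraries. Cmpk2 had 1 read with Ad-GFP and 2 with Ad-Cre, and Gbp2 had 1 and 15, too few to set the size of a difference.

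The 8 genes were Isg15, Xaf1, Irf7, Usp18, Ifitm3, Bst2, Ifi27 and Ifit1. At day 2 Isg15 had 37 reads with Ad-GFP and 240 with Ad-Cre, a log2 ratio of 3.05 (2.54 to 3.59). Xaf1 had 21 and 109 reads and a ratio of 2.73 (2.04 to 3.47). Irf7 had 38 and 154 reads and a ratio of 2.37 (1.85 to 2.92). Its product is the factor among these that induces interferon genes. Usp18 had 18 and 65 reads and a ratio of 2.20 (1.43 to 3.04), and Ifit1 32 and 75 reads and a ratio of 1.58 (0.96 to 2.22). Ifitm3, Bst2 and Ifi27 had ratios of 1.74, 1.72 and 1.68. Among the other members Stat2 had a ratio of 1.27 (1.13 to 1.41) and Igtp of 1.32 (0.52 to 2.15), the latter at 2.49-fold. At the low end stood Lgals3bp at -0.84, Trim25 at -0.74, Irf1 at -0.24 and Dtx3l at -0.10, and Parp12 followed at 0.31. After division by the trend Trim25 was at -0.11 and Dtx3l at 0.79. This ratio shares no library with the day 0 comparison, in which Isg15, Usp18, Xaf1 and Bst2 also had counting intervals above 0, Ifitm3 had one below 0 and that of Ifi27 held 0.

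The length and GC trend of the Ad-Cre day 2 library changed which genes passed. After division by it, 11 members were over 2.5-fold higher, beside 7.71% of all expressed genes. Of the 11, 5 were among the 8, namely Isg15, Xaf1, Irf7, Usp18 and Ifit1. Bst2, Ifitm3 and Ifi27 dropped to 0.90, 1.21 and 1.29, inside the cutoff of 1.32 on the log2 scale. Ddx58, Eif2ak2, Ifit2, Igtp, Irgm1 and Stat2 passed it, of which Ddx58, Eif2ak2, Ifit2 and Stat2 are longer than at least 72.1% of expressed transcripts. The median of the 26 members was 1.18 after the division, and 23 of them were above 0, against 22 before it. Over all expressed genes 994 were higher and 1114 lower as deposited, and 1180 and 860 with TMM factors, with which 11 members were over 2.5-fold higher. With the totals of the deposited counts the corresponding split of all genes between day 2 and day 0 in Ad-Cre cells was 1355 higher and 927 lower, against 1043 and 1167.

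**Figure D4:**
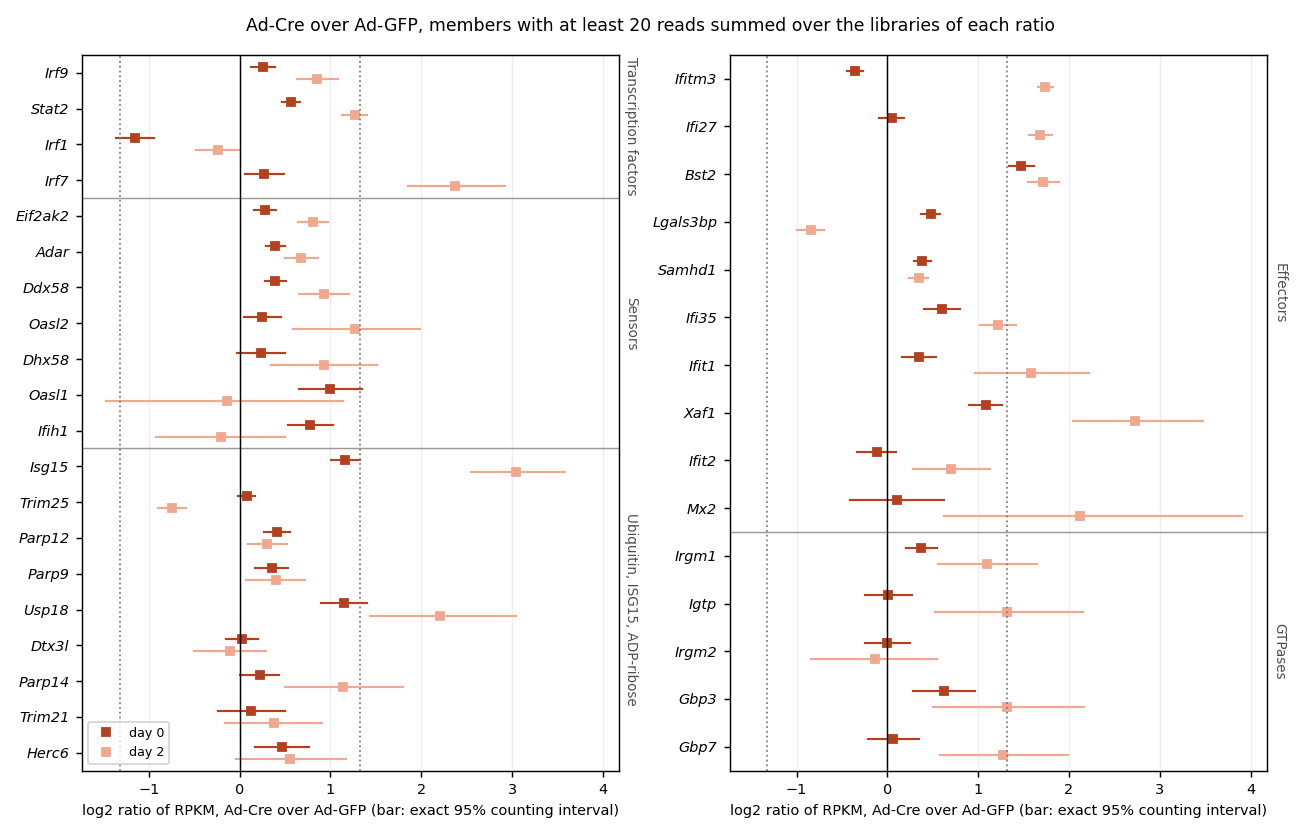
Log2 ratio of RPKM in Ad-Cre over Ad-GFP cells for 35 members with at least 20 reads summed over the libraries of each ratio, at day 0 (dark) and day 2 (pale), with exact 95% counting intervals as bars and dotted lines at 2.5-fold. At day 0 most points lie between 0 and the upper dotted line; at day 2 Isg15, Xaf1, Irf7 and Usp18 lie beyond it, and Lgals3bp, Trim25 and Irf1 lie left of 0.

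**Figure D5:**
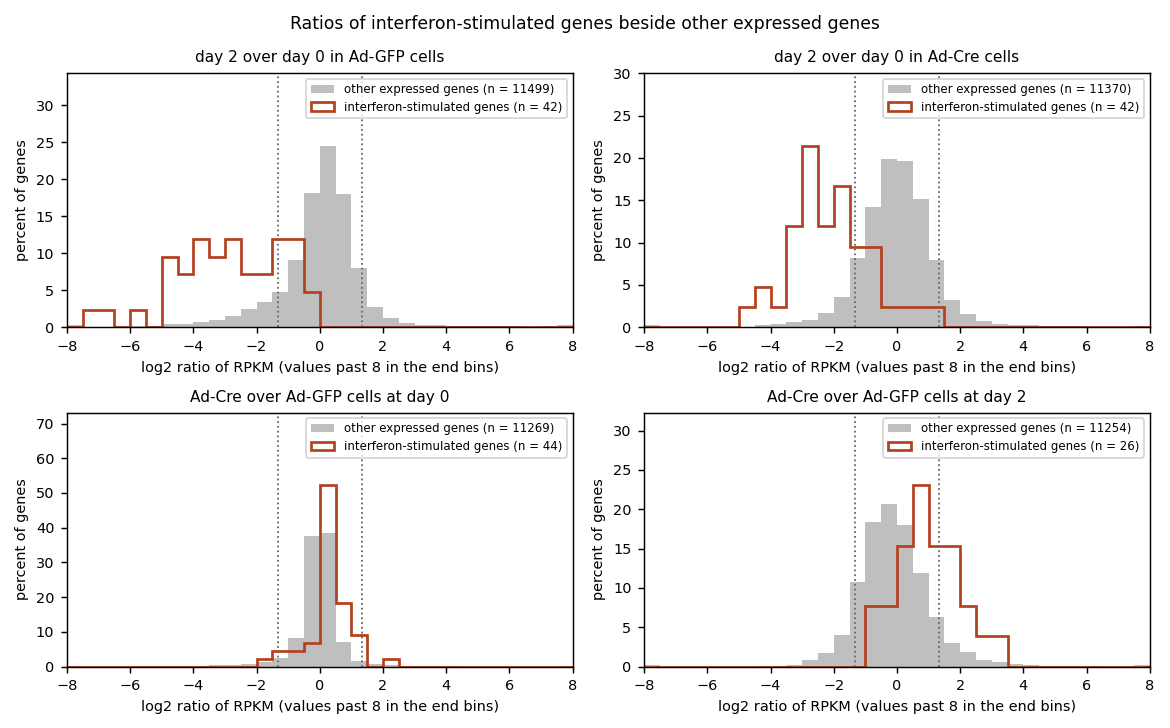
Percent of genes by log2 ratio in each of the 4 comparisons, for expressed members (outline) and other expressed genes (grey), with dotted lines at 2.5-fold. The members centre at -2.92 and -2.13 in the day comparisons, at 0.31 between the pools at day 0 and at 0.93 at day 2.

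Members with and without the promoter element were mostly lower at day 2. In Ad-GFP cells 13 of 16 expressed members with the core and 12 of 18 without it were over 2.5-fold lower at day 2, with median log2 ratios of -2.97 and -2.29. In Ad-Cre cells the counts were 13 of 18 and 12 of 17, with medians of -2.45 and -1.73. At day 2 the ratio of Ad-Cre to Ad-GFP had a median of 1.29 over 10 members with the core and of 0.51 over 12 without it. Of those with the core, Igtp, Irgm1, Ifit1 and Trim21 passed 1 RPKM in Ad-Cre cells alone, where they were higher. The same holds for Irf7, Xaf1 and Ifit2 of those without it. At day 0 the medians of this ratio were close, at 0.38 over 18 members with the core and 0.33 over 18 without it. The medians by motif were not recomputed after division by the trend. Irf7, Xaf1 and Cmpk2 had no match in these windows.

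Genes upstream of the interferon-stimulated genes were taken from a list of 41. The ligands were not detected, since 10 interferon genes, Ifnb1, Ifna1, Ifna2, Ifna4, Ifna5, Ifnk, Ifne, Ifng, Il28a and Il28b, had 0 reads in every library, and the limit that a count of 0 allows, 3 reads, corresponds to between 0.136 and 0.189 CPM, the reads scaled to the counted total. The receptors were expressed apart from Il28ra, the receptor of interferon lambda. Ifnar1 had 1731, 1760, 1850 and 1437 reads, in the order Ad-GFP day 0, Ad-GFP day 2, Ad-Cre day 0 and Ad-Cre day 2, and log2 ratios of day 2 to day 0 of -0.39 and -0.25. Ifnar2 had 514, 411, 558 and 611 reads and ratios of -0.74 and 0.24. Ifngr1 went against the target genes, with 447, 3366, 593 and 877 reads, a ratio of 2.49 for Ad-GFP (2.35 to 2.64) and 0.68 for Ad-Cre. Ifngr2 had ratios of -1.28 and -1.20. Il10rb, shared by the receptors of interferon lambda and interleukin 10, had 335, 85, 354 and 91 reads and ratios of -2.40 and -1.85.

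Of the signalling genes downstream of the receptors, Jak1, Jak2, Tyk2 and Stat3 stayed within 2.5-fold, with ratios of day 2 to day 0 from -0.34 to -0.18 with Ad-GFP and from -0.97 to 0.17 with Ad-Cre. Among the genes that induce interferon, Tmem173, which encodes the adaptor STING, had 899, 66, 601 and 97 reads and ratios of -4.19 for Ad-GFP (-4.57 to -3.82) and -2.52 for Ad-Cre (-2.84 to -2.21). Tlr3, the receptor for double-stranded RNA in endosomes, had 52, 6, 94 and 6 reads, passed 1 RPKM only in Ad-Cre cells at day 0, and had a ratio of -3.86 in those cells. Ikbke, a kinase that activates IRF3, had 160, 74, 186 and 243 reads and was 4.19-fold higher at day 2 with Ad-Cre than with Ad-GFP. Mb21d1, the DNA sensor cGAS, had ratios of 0.44 and 0.68, and Irf3 of 0.68 and 1.22.

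Regulators that dampen the signal, and the other interferon regulatory factors, were mixed. Socs1, a feedback inhibitor of JAK kinases, had 235, 67, 191 and 136 reads and ratios of -2.23 and -0.38. At day 2 it was 2.59-fold higher with Ad-Cre than with Ad-GFP, a log2 ratio of 1.37 that was 0.35 after division by the trend. Socs3 had 1269, 737, 406 and 679 reads and was 3.55-fold lower at day 0 with Ad-Cre than with Ad-GFP. Irf5 had 240, 81, 242 and 100 reads and ratios of -1.99 and -1.16. Irf2bp2, a corepressor that binds IRF2, had 1879, 11226, 3044 and 4536 reads and was 4.47-fold higher at day 2 with Ad-GFP and 1.61-fold higher with Ad-Cre. Over the whole list of upstream genes, 5 of 27 expressed genes (18.5%) were over 2.5-fold lower at day 2 and 2 (7.41%) were higher in Ad-GFP cells, beside 12.7% and 8.38% of all expressed genes, with a median log2 ratio of -0.22. In Ad-Cre cells 3 of 28 (10.7%) were lower and 0 higher, beside 10.2% and 9.14%, with a median of -0.05. After division by the trend these 3, Il10rb, Tmem173 and Tlr3, were still past the cutoff. Irf5 (-1.48), Socs1 (-1.40) and Ifngr2 (-1.34) then also passed it downward, and Pias1 (1.67) passed it upward. Of all expressed genes 9.37% were lower and 6.39% higher after that division. The median of the 42 expressed interferon-stimulated genes was -2.92 with Ad-GFP and -2.13 with Ad-Cre.

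Signs of other cells and of the hormone mixture were read from marker lists. The defining leukocyte markers Ptprc and Adgre1 had 0 reads in every library, and of 7 leukocyte markers found only Cd14 passed 1 RPKM. The summed level of these 7 markers was between 0.580 and 2.78 RPKM. Endothelial markers summed to at most 0.238 RPKM, and none of 5 passed 1 RPKM. Of 4 skeletal muscle markers Myog had 0 reads in every library, and only Acta1 passed 1 RPKM. Acta1 was at 18.4 and 0.364 RPKM at day 0 and day 2 in Ad-GFP cells, and at 48.5 and 3.41 RPKM in Ad-Cre cells. It was over 2.5-fold lower at day 2 in both pools. The adipogenic mixture holds dexamethasone, a glucocorticoid, and 4 of 4 glucocorticoid-induced genes (Tsc22d3, Fkbp5, Per1 and Zbtb16) were over 2.5-fold higher at day 2 in both pools, with summed levels of 40.8 and 408 RPKM with Ad-GFP and of 39.4 and 231 RPKM with Ad-Cre. The part of the hormones, of the changes in preadipocyte markers and of the gain of adipocyte markers in the lower levels at day 2 was not tested, and with all of them added or changed between the same libraries they cannot be told apart.

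Near-identical copies limit the values of some members. Most windows of 50 bases matched elsewhere in the genome for Gbp6 (98.4%), Tgtp1 (97.1%), Oas1a (89.8%), Oas1g (84.8%) and Ifit3 (78.8%). For Isg15 the share was 47.8%, for Iigp1 26.5%, for Mx2 23.4% and for Ifitm3 23.3%. How reads with several matches were counted is not stated, so the levels of these genes are uncertain. Their ratios between libraries share the same treatment, but they too may include reads of the matching copies, whose levels can change differently.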

How the data were processed

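RNA-Seq was analysed from 4 libraries, 1 per condition, grouped by the sample labels as Ad-GFP or Ad-Cre at day 0 or day 2. The authors aligned reads to NCBI37/mm9 and deposited, for each of 29082 RefSeq transcripts, the count of reads on exons as whole numbers without normalization. The deposited RPKM was made by the authors by dividing the count by exon length and library size in mapped reads. The submitters' processing notes name bedtools 2.16 and SICER 1.1, with no role given.

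From these, 1 transcript per symbol was kept, expressed genes were those above 1 RPKM in at least 1 of the 2 libraries compared, and a gene was higher or lower past 2.5-fold, after the cutoffs of the study's methods. No test was run. Exact Clopper-Pearson 95% intervals of the split of reads (scipy 1.17.1) cover counting error only. With 0 reads, 3 reads per library were set as the floor. The members and gene lists were chosen with earlier results of these data known. A gene of the upstream list is not reported here and was left out of that list's counts. All members are named; values are given for the members with most reads in each role and those with extreme ratios, by a fixed rule.

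Ratios were also divided by their trend over transcript length and GC content (medians of 20 bins, 5 rounds). TMM factors came from edgeR 4.0.16 in R 4.3.3, with no edgeR test. Windows of 50 bases were matched to NCBI37 with blastn 2.17.0, allowing 2 mismatches. Promoter sequences are those of RefSeq (GRCm38.p6), and each was placed on NCBI37 by its only exact match. Gene positions came from GENCODE vM1. Scripts ran in Python 3.11.15 with pandas 2.3.3, numpy 2.4.6 and matplotlib 3.10.9 for figures. The procedure was tested on simulated data. The 11 alternatives were other scalings, expression thresholds, cutoffs, a pseudocount, the interval bound, the mean of all transcripts and the trend.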

Additional observations from a re-analysis of the deposited data

Results flagged for a closer look

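For 10 genes the ratio of day 2 to day 0 had opposite signs in Ad-GFP and Ad-Cre cells, with both counting intervals away from 0. Each sign rests on 1 library per condition, so the difference between the cell pools was not tested.

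Among the interferon-stimulated genes these were Ifitm3, with log2 ratios of -0.999 for Ad-GFP and 1.097 for Ad-Cre, Ifi27, with -0.66 and 0.97, and Ifi35, with -0.42 and 0.19. Among the upstream genes, lower in Ad-GFP and higher in Ad-Cre cells were the receptor chain Ifnar2 (-0.74 and 0.24), the kinase Ikbke (-1.53 and 0.50), the inhibitor Socs3 (-1.20 and 0.86), Stat3 (-0.21 and 0.17) and Trex1 (-0.40 and 0.75), an exonuclease that clears cytosolic DNA. The opposite order was seen for the phosphatase gene Ptpn11 (0.16 and -0.78) and Pias2 (0.17 and -0.71). After division by the length and GC trend, the Ad-Cre ratios of Ifi35 (-0.38) and Trex1 (-0.26) and the Ad-GFP ratio of Pias2 (-0.14) changed sign.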

How the results depend on the processing

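No paired analysis was possible because the labels give no replicates, and an additive fit of pool and day over 4 libraries would take the difference between the pools as its error. The counts were recomputed under 11 alternatives, and the medians under those that leave the cutoff and its bound as they were. Single ratios past the cutoff were recomputed with other scalings, the pseudocount, the mean of all transcripts and the trend. No median and no ratio past the cutoff changed sign. The counts past the cutoff at day 0 were too small to give a direction. Of the other ratios, those of Ifi35 (-0.38, day 2 over day 0, Ad-Cre), Dtx3l (0.79, Ad-Cre over Ad-GFP, day 2) and Irgm2 (-0.017, day 0) changed sign with the trend, that of Dtx3l also with TMM factors (0.031), and those of Dtx3l (0.027), Irf1 (0.090, day 2 over day 0, Ad-Cre) and Irgm2 (-0.0046) with the totals of the counts. The counts of members lower at day 2 ran from 26 to 35 (Ad-GFP) or 23 to 34 (Ad-Cre), and the median between the pools at day 0 from 0.27 to 0.35. A pseudocount of 1 RPKM, which shrinks low genes by construction, brought the medians to -1.54 (day 2 over day 0, Ad-GFP), -1.44 (Ad-Cre) and 0.63 (Ad-Cre over Ad-GFP, day 2). Members higher in Ad-Cre at day 2 numbered 8, but 4 with a 4-fold cutoff, 13 with expression read from Ad-GFP cells and 5 with the pseudocount. Members higher at day 0 numbered 2, but 3 after the trend, 5 with a 2-fold cutoff and 1 with a 4-fold cutoff, with expression read from Ad-GFP cells, with the interval past the cutoff or with the pseudocount. The member lower at day 0 became 2 with a threshold of 0.5 RPKM, with at least 20 reads or after the trend, 3 with a 2-fold cutoff, and 0 with a 4-fold cutoff, the interval or the pseudocount. A 2-fold cutoff also made 1 member higher at day 2 in Ad-Cre cells. Of the values for single genes, 279 stayed within their counting interval and 91 moved further, 62 of them with the pseudocount and 22 with the trend. TMM factors shifted the median log2 ratio of all genes from -0.15 to -0.02 between the pools at day 2, and the members moved with it. Depth limits genes under about 20 reads, and the absence of replicates limits every difference.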
